A study of Homo sapiens with 6 samples.

Results

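The protocadherins are the largest group of the cadherin superfamily, and all protein-coding genes of GENCODE 29 whose symbol begins with PCDH were taken here. There are 66 such genes among the 58381 gene IDs of the deposited table, and all 66 were found by their Ensembl ID. They comprise 15 genes of the alpha cluster, 16 of the beta cluster and 22 of the gamma cluster, which lie side by side on chromosome 5, and 13 non-clustered genes outside these arrays.

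Protocadherins are membrane proteins whose extracellular cadherin repeats bind the same protein on a neighbouring cell. They are best known from the nervous system, where each neuron chooses its own set of clustered members and the set marks the branches of that cell as its own. The choice is made among alternative promoters: each alpha or gamma gene has its own large first exon, which encodes the extracellular part, and splices it to 3 constant exons shared by the whole cluster. Beta genes are single exons with no constant part. The C-type members (PCDHAC1, PCDHAC2, PCDHGC3, PCDHGC4 and PCDHGC5) sit at the 3' end of their variable arrays and are known to be expressed more broadly than the members chosen at random. Non-clustered protocadherins such as PCDH1, PCDH7 and PCDH9 are ordinary genes with their own cytoplasmic tails.

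RNA was measured in 6 libraries of MCF10AT1, an HRAS-transformed, premalignant derivative of the MCF10A human breast epithelial line, grown with horse serum, insulin, EGF, cholera toxin and hydrocortisone. Cells stained for CD24 and CD44 were sorted into a CD24low, CD44high fraction, labelled CSC, and a CD24high, CD44-positive fraction, labelled Bulk. Each fraction had 3 libraries of rRNA-depleted total RNA. All libraries come from this 1 cell line, no label ties a replicate to a separate culture, and p-values therefore measure only the spread between libraries, which may be technical.

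The libraries held 16691162 to 27293177 reads, and values are normalized counts, that is, reads per gene scaled to a common depth. The rRNA share of the reads was 1.30% to 2.27% in CD24high replicates 1 and 2 and CD24low replicate 3, and 7.07% to 10.2% in CD24high replicate 3 and CD24low replicates 1 and 2. Differences within these sets of libraries are given below as those at low and at high rRNA share. Markers of breast epithelium were all detected, and all 9 had a lower mean in CD24low. Their summed level was 124160 to 142662 normalized counts in CD24high and 80903 to 119350 in CD24low, most of it from KRT5, KRT8, KRT18 and ITGA6. At 6 of the 9 the CD24low values lay wholly below the CD24high values, beside 9.32% of all genes tested. The groups overlapped at KRT8, KRT14 and KRT18. The summed level of 9 markers of fibroblasts or mesenchyme was 1390 to 3627 in CD24high and 5901 to 17757 in CD24low, nearly all of it from VIM and DCN, with LUM at 0 and COL1A2 at 0 in 5 of 6 libraries. The summed level of 9 neuron and glia markers was 33.3 to 70.5, most of it from SYT1, and RBFOX3, ELAVL4, GFAP and OLIG2 had no read. Endothelial markers summed to 92.9 to 400 in CD24high and 110 to 345 in CD24low, and blood markers to 110 to 140 and 139 to 243. Most of the endothelial sum was PECAM1 (85.5 to 393), with CDH5, VWF, KDR and TEK each at most 11.7 in any library. Nearly all of the blood sum was CD14 and CD68, with PTPRC at most 1.98 and CD3E without a read. In bulk RNA, fewer cells of a type and less RNA per cell cannot be told apart.

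The alpha and gamma genes could not be read as separate measurements, because, as the counts show, a read in a constant exon had been counted at every gene of its cluster. In GENCODE 29 on hg38, the alpha constant exons lie at chr5:140978949-140979007, chr5:140982475-140982563 and chr5:141009627-141012344, 2866 bases in all, and belong to all 15 alpha genes. The gamma constant exons lie at chr5:141494807-141494865, chr5:141505393-141505481 and chr5:141510947-141512979, 2181 bases in all, and belong to all 22 gamma genes. The sequences below show why reads there name no member. Each is the coding strand across the first splice junction, read from the GENCODE 29 transcripts, with 30 bases of the member's own variable exon in lower case and the first 30 bases of the constant exon in capitals.
PCDHA2: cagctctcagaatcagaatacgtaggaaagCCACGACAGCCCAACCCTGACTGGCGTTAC
PCDHA12: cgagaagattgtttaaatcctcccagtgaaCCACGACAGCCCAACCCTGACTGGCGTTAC
PCDHAC1: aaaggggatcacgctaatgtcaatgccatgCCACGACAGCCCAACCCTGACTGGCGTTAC
PCDHGA2: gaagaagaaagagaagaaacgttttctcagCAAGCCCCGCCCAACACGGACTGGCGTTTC
PCDHGC3: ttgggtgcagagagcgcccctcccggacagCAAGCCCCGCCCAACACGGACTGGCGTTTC

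The capital letters were the same in 15 of 15 alpha genes and, with other letters, in 22 of 22 gamma genes, while the lower-case letters differed between all members. The counts followed: within a cluster most members had almost the same count in a library. PCDHA2, whose first exon carries the first of these junctions, was the lowest of the 15 alpha genes in all 6 libraries, and PCDHGA2 the lowest of the 22 gamma genes in all 6. For each cluster and library, the lowest member's count was therefore taken as the shared part, and each member's excess over it as its own part. The own part is a lower bound on the reads that only that member can give, apart from genes whose annotated exons overlap further on the same strand: PCDHA2 with PCDHA3, PCDHA10 with PCDHA11 and with the pseudogene PCDHA14, and PCDHGB4 with PCDHGA8.

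**Figure D1:**
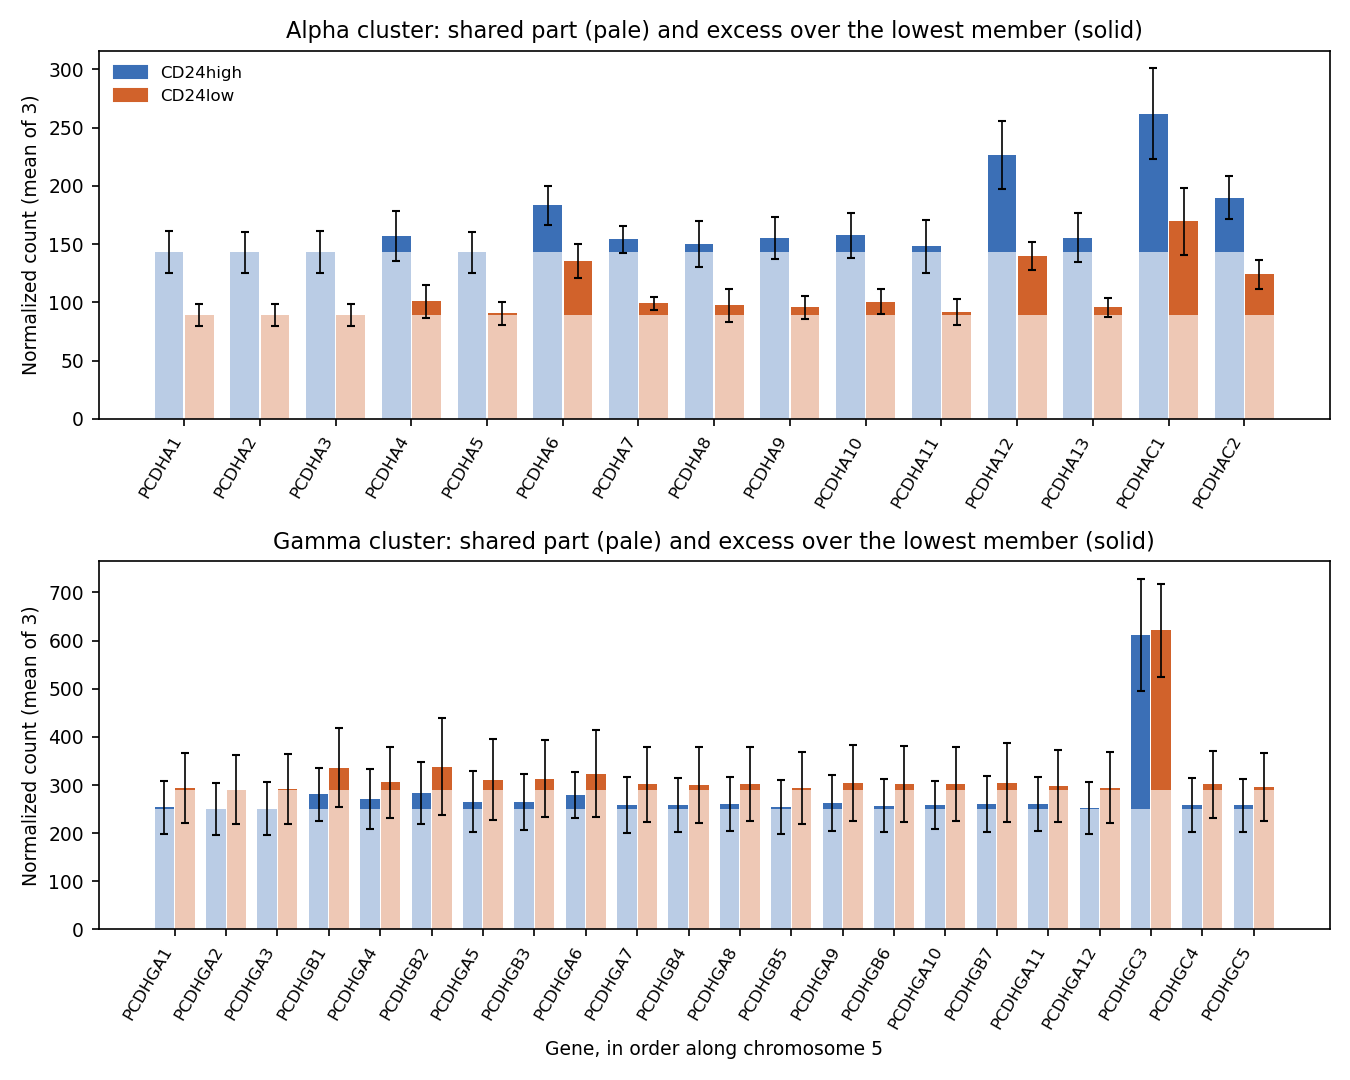
Mean normalized count of each alpha gene (upper panel) and gamma gene (lower panel) in CD24high (blue) and CD24low (orange), with genes in their order along chromosome 5. The pale part is the cluster's shared part, the solid part the gene's excess over the lowest member, and error bars are the SD of the gene's whole count over 3 libraries. Most members are mostly pale, and PCDHA6, PCDHA12, PCDHAC1, PCDHAC2 and PCDHGC3 stand out by their solid parts.

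The promoters of the members follow, since it is promoter choice that sets which variable exon a cell uses. RefSeq promoters (GRCh38.p14, 250 bases before to 50 after the most upstream start of each gene) were matched for 58 of the 66 genes. The 250 bases before the start are shown for 3 alpha genes of the regular kind, for the C-type gene PCDHAC1 and for PCDH9. The 4 letters CGCT, the core of the conserved sequence element of clustered protocadherin promoters, are in capitals on either strand (AGCG where it lies on the other strand).
PCDHA2 (chr5:140794602-140794851, plus strand): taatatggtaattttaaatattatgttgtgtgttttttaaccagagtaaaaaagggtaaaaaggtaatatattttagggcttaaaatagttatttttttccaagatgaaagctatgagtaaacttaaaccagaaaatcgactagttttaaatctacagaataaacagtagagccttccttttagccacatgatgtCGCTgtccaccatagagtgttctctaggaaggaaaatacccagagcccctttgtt
PCDHA6 (chr5:140827710-140827959, plus strand): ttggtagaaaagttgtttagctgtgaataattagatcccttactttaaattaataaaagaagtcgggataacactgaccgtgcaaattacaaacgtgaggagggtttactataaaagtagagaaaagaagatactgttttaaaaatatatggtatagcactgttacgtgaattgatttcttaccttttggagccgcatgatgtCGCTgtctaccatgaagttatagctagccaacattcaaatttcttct
PCDHA12 (chr5:140875058-140875307, plus strand): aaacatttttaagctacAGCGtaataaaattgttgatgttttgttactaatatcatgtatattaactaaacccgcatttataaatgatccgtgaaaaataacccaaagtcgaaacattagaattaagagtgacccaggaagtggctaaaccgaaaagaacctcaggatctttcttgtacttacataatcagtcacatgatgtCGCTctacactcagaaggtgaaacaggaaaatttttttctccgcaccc
PCDHAC1 (chr5:140926049-140926298, plus strand): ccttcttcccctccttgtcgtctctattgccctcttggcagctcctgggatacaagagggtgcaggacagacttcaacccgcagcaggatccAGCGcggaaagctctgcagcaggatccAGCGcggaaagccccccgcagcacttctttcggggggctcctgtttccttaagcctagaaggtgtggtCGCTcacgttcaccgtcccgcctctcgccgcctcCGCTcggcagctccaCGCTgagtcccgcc
PCDH9 (chr13:67230337-67230586, minus strand): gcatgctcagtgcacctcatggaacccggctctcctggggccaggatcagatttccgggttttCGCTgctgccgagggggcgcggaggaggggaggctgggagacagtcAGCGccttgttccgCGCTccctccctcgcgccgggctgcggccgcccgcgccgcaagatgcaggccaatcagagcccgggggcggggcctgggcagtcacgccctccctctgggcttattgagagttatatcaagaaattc

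CGCT was in 56 of the 58 protocadherin promoters (96.6%), and in 69.3% of 27305 RefSeq promoters of the same length, on both strands. In the PCDHA2, PCDHA6 and PCDHA12 sequences the CGCT nearest the start closes the same 12 letters, CATGATGTCGCT, which was picked out after the sequences were seen. These 12 letters were in 8 of the 11 regular alpha promoters and in 0 of 14 beta, 0 of 20 gamma and 0 of 11 non-clustered promoters. Among the 27247 promoters of other genes, 0 held them. The CTCF core searched for, AGNNGGCGC on both strands, was in 6 of 58 protocadherin promoters (10.3%) and in 10.3% of all promoters; the 13 alpha promoters had none and the PCDH9 promoter had 1. CTCF is the insulator protein that loops clustered protocadherin promoters to their enhancers. Only this string was searched for, and a promoter without it can still hold a CTCF site. The promoters also differed in base composition. G and C made up 33.7% to 40.3% of the regular alpha promoters and 32.3% to 51.3% of the regular gamma promoters, but 66.0% at PCDHAC1, 63.0% at PCDHAC2, 59.0% at PCDHGC3 and 65.7% at PCDH9, beside a median of 58.3% over all promoters.

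Of the 66 genes, 10 had no read, another 10 had reads but a mean below 10 normalized counts, and 46 were tested. With limma on log2 (normalized count + 1), adjusted over the 16047 genes tested, 0 of 46 passed the threshold of 0.05, as did 0% of all genes (0 of 16047). The smallest limma adjusted p among the protocadherins was 0.078, at PCDH9. Without adjustment, 18 of 46 had a limma p under 0.05, 2 higher and 16 lower in CD24low, beside 13.5% of all genes. edgeR's quasi-likelihood test also called 0 of 46 and 0% of all genes, with 18 members under 0.05 before adjustment, beside 14.1% of all genes. With either tool, 15 of these 18 are the alpha genes that share reads. With shared reads counted once, each of limma, edgeR and DESeq2 had 5 of 29 rows under 0.05 before adjustment, beside 12.9% to 14% of all rows. DESeq2 called PCDH9 and PCDH7 higher in CD24low, beside 1.36% of all genes, and PCDHA12 lower, beside 1.15%. With the replicate number added as a block, limma and edgeR each called 5 of 46, beside 4.46% and 4.39% of all genes. The 3 CD24low values lay wholly above the 3 CD24high values at 3 members (10.2% of all genes) and wholly below them at 17 (9.32% of all genes), and 15 of those 17 are the alpha genes that share reads.

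**Figure D2:**
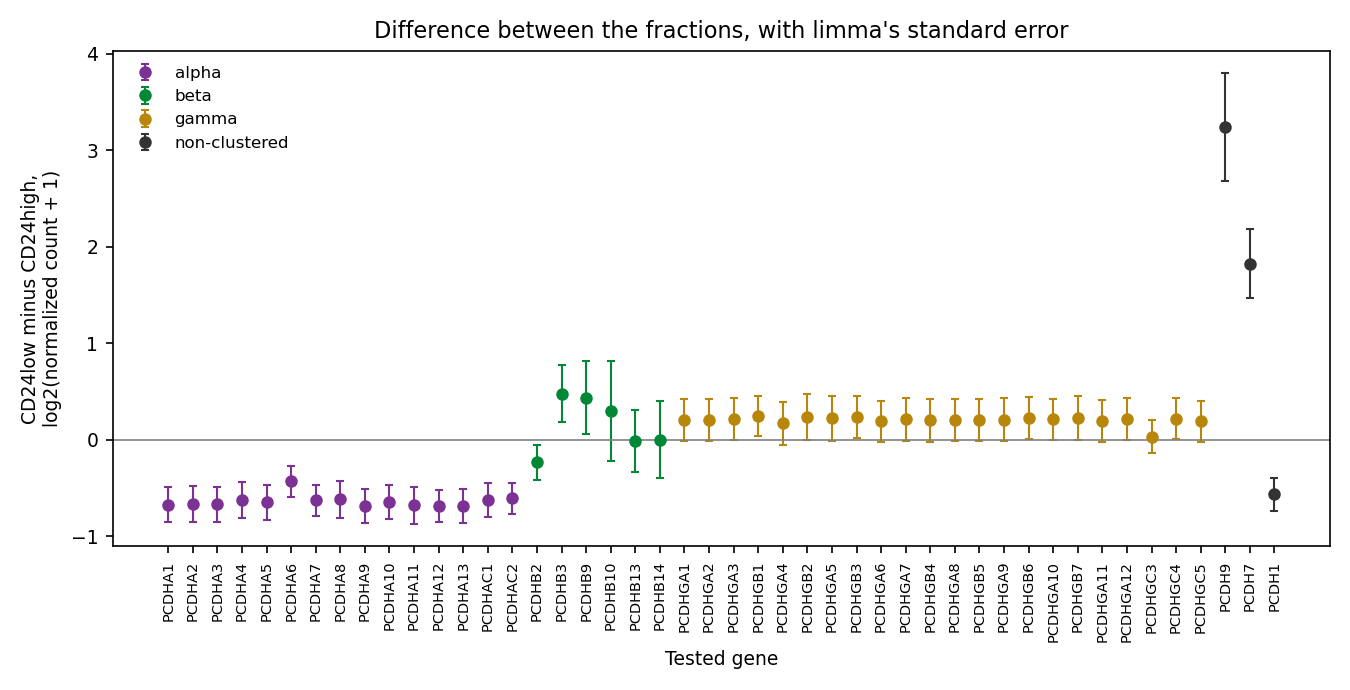
Difference between the fractions for the 46 tested protocadherins, as CD24low minus CD24high on the log2 (normalized count + 1) scale (y axis), with limma's standard error as bars and genes along the x axis, coloured by cluster. All alpha genes lie between -0.69 and -0.43 and all gamma genes between 0.03 and 0.25, as the shared reads enter every member of a cluster, while PCDH9 (3.24), PCDH7 (1.82) and PCDH1 (-0.57) stand alone.

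Among the non-clustered genes, PCDH9 and PCDH7 were higher in CD24low by DESeq2. In the fits without a replicate block on all 6 libraries, limma and edgeR did not call them. PCDH1, the most abundant protocadherin in these cells, had a lower mean in CD24low. PCDH9 (chr13:66302834-67230445, minus strand) encodes an adhesion protein known from the developing brain. It had 28.2, 46.4 and 13.2 normalized counts in the 3 CD24high libraries and 245, 562 and 119 in the 3 CD24low libraries. The groups did not overlap, and the lowest CD24low library was well above the highest CD24high library. The log2 difference was 3.24 (SE 0.56), a 9.45-fold higher level on the log2 (normalized count + 1) scale, with a limma adjusted p of 0.078 and a DESeq2 adjusted p of 0.0018. By size, the difference ranked 29 among the 16047 genes. Per kb of exon, the PCDH9 level was 0.95 ± 0.54 normalized counts in CD24high and 9.97 ± 7.4 in CD24low (SD over 3 libraries), below that of PCDH7 and of PCDH1 in both fractions.

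PCDH9 was higher in CD24low at both levels of rRNA share, by 1.68 on the log2 scale at low share and by 4.72 at high share. The lowest of the CD24low libraries, replicate 3, was also the one with the lowest summed mesenchymal markers (5901) and the highest summed epithelial markers (119350) of that fraction; the part of either in the PCDH9 difference was not tested. Without that library the difference was 3.79 and the limma adjusted p 0.011. Without CD24high replicate 1 the DESeq2 adjusted p was 0.054.

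PCDH7 (chr4:30720415-31146805, plus strand), a relative of PCDH9 with the same domain layout, reached 93.8, 101 and 77.4 normalized counts in the CD24high libraries and 258, 639 and 202 in the CD24low libraries. As at PCDH9, the groups did not overlap, CD24low replicate 2 was the highest library and replicate 3 the lowest of its fraction. The log2 difference was 1.82 (SE 0.36), or 3.54-fold, with a limma adjusted p of 0.095 and a DESeq2 adjusted p of 1.02e-05. It was 1.05 at low and 2.38 at high rRNA share. Leaving out CD24low replicate 3 gave 2.16 with a limma adjusted p of 0.016, and leaving out CD24high replicate 1 gave a DESeq2 adjusted p of 0.12. As at PCDH9, CD24low replicate 3 had the lowest mesenchymal marker sum of its fraction, whose part was not tested. The PCDH7 level was 7.40 ± 0.98 normalized counts per kb in CD24high and 29.9 ± 19.4 in CD24low.

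PCDH1 (chr5:141853111-141879246, minus strand) is an epithelial protocadherin, known from the airway. It reached 2806, 3122 and 3657 normalized counts in the CD24high libraries and 2265, 1665 and 2607 in the CD24low libraries, so the groups did not overlap but lay close, at 2607 against 2806. The log2 difference was -0.57 (SE 0.17), with a limma adjusted p of 0.21 and a DESeq2 adjusted p of 0.066. Without a replicate block, neither limma, edgeR nor DESeq2 called PCDH1 on all 6 libraries. With the block, each of these tools called it. The difference was -0.18 at low and -0.91 at high rRNA share. Without CD24low replicate 3 the DESeq2 adjusted p was 0.0081. Its level, 541 ± 72.9 normalized counts per kb in CD24high and 369 ± 80.8 in CD24low, was the highest of all 66 genes. The summed epithelial markers were also lower in every CD24low library than in any CD24high library, and their part in the PCDH1 difference was not tested.

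**Figure D3:**
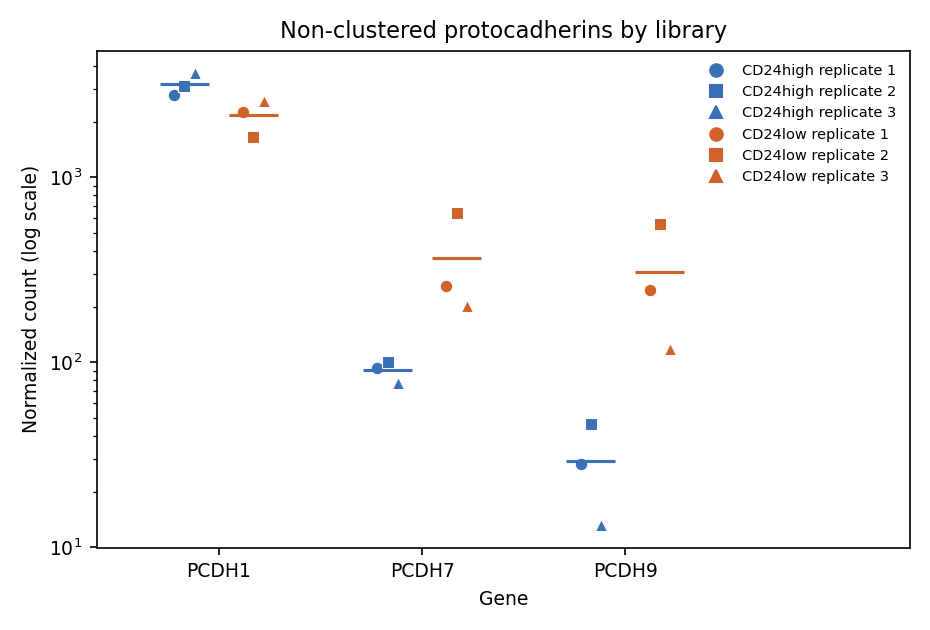
Normalized count (log axis) of the 3 tested non-clustered protocadherins in each library, with symbols for the replicate number and horizontal lines at the mean of 3 libraries. PCDH9 and PCDH7 lie higher in CD24low (orange) than in CD24high (blue) in all libraries, PCDH1 lower, and PCDH9 spans 13.2 to 562.

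The other non-clustered genes had no reads or very few at this depth. PCDH8, PCDH10, PCDH11X, PCDH11Y, PCDH15, PCDH17, PCDH18, PCDH19 and PCDH20 were without a read in any of the 6 libraries; a count of 0 allows a level of at most 3 reads, that is 2.49 to 4.38 normalized counts across libraries, and this limit covers counting error alone. They include PCDH15, part of the tip link of inner ear hair cells, and PCDH19, a brain gene. PCDH12, an endothelial protocadherin, had 12 reads in all, 2.49 to 2.96 normalized counts in CD24high and 0.88 to 1.96 in CD24low, all at or under 3 reads.

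In the alpha cluster the shared part had a lower mean in CD24low, which no test called. It was 151, 122.5 and 155 normalized counts in CD24high and 85.5, 100 and 82.3 in CD24low, with means of 143 ± 17.7 and 89.4 ± 9.61 (SD over 3 libraries). The groups did not overlap, and the CD24low level was 0.63 times the CD24high level, a log2 difference of -0.67 (SE 0.18). The exact permutation test over the 6 libraries gave a two-sided p of 0.1, the smallest it can give with 3 against 3, or 0.6 after adjustment over the 6 cluster values compared. Fitted as 1 row among all genes, the shared part had an adjusted p of 0.18 with limma, 0.10 with DESeq2 and 0.21 with edgeR. The difference was -0.72 at low and -0.74 at high rRNA share. Since the shared part enters all 15 genes, their 15 negative differences (median -0.65, beside -0.01 over all genes tested) are largely 1 measurement and not 15. The summed epithelial markers were lower in the same libraries. Within CD24low, replicate 3 had the highest marker sum (119350) and the lowest shared part (82.3, on 84 reads). Replicate 2 had the lowest marker sum (80903) and the highest shared part (100, on 105 reads). The part of the markers in the alpha difference was not tested.

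The own parts differed widely between the alpha genes. PCDHAC1, PCDHA12, PCDHA6 and PCDHAC2 together gave 78.8% of the summed own parts of the 15 genes. In the other 11 the own part was at most 14.6% of the count in any library, and in PCDHA1, PCDHA2, PCDHA3 and PCDHA5 it was at or near 0. Per kb of their own exons, PCDHA12 and PCDHAC1 had 25.8 and 24.5 normalized counts, PCDHA6 13.3 and PCDHAC2 11.8, while the constant exons had 40.5. The regular alpha genes with the largest own parts were thus PCDHA12 and PCDHA6. Summed over the 15 genes, the own parts per kb came to 90.6, above the 40.5 of the constant exons. The reason was not tested.

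The own part of PCDHA12 was 70.5, 77.1 and 102 normalized counts in CD24high and 40.5, 49.7 and 60.7 in CD24low. All CD24low values were below all CD24high values. Its log2 difference was -0.72 (SE 0.24), with an adjusted p of 0.25 with both limma and DESeq2. The whole count, 222, 199.6 and 257 in CD24high and 126, 150 and 143 in CD24low, gave a DESeq2 call (log2 difference -0.69, adjusted p 0.035) that did not pass once the shared reads were counted apart. That call was also lost when any 1 of the 6 libraries was left out, with adjusted p from 0.054 to 0.24. With the replicate block, limma and edgeR called the whole count of PCDHA12, and DESeq2 did not. A noncoding gene on the opposite strand, AC005609.3, overlaps 577 bases of PCDHA12 and had 1.76 to 12.8 normalized counts, and its part in the PCDHA12 count was not tested.

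PCDHAC1, the first C-type gene, had an own part of 104, 105 and 149 in CD24high and 67.0, 53.5 and 120 in CD24low. Here the groups overlapped, through CD24low replicate 3. The log2 difference was -0.63 (SE 0.30, limma adjusted p 0.40), but it was 0.21 at low and -1.30 at high rRNA share. The whole count of PCDHAC1, shared part included, did not overlap and had a DESeq2 adjusted p of 0.081. That p was 0.019 without CD24low replicate 3, and limma and edgeR called the whole count with the replicate block. The own part of PCDHAC2 was 52.3, 46.4 and 42.4 in CD24high and 24.7, 34.4 and 45.1 in CD24low, which also overlapped.

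PCDHA6 went the other way. Its own part was 39.0, 41.5 and 40.9 in CD24high and 36.1, 50.6 and 51.9 in CD24low, a log2 difference of 0.17 (SE 0.24, limma adjusted p 0.80). Its whole count, in which the shared part dominates, gave -0.43. Of the 7 alpha genes whose own part was high enough to test, 6 had a lower and 1 a higher mean in CD24low, and 0 passed with limma, edgeR or DESeq2, with 1 under 0.05 before adjustment in each. Over all rows fitted with shared reads counted once, 13.4% were under 0.05 unadjusted with limma, 14% with edgeR and 12.9% with DESeq2. The sum of all alpha own parts was 316, 344 and 444 in CD24high and 204, 253 and 347 in CD24low, overlapping, with an exact permutation p of 0.3.

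**Figure D4:**
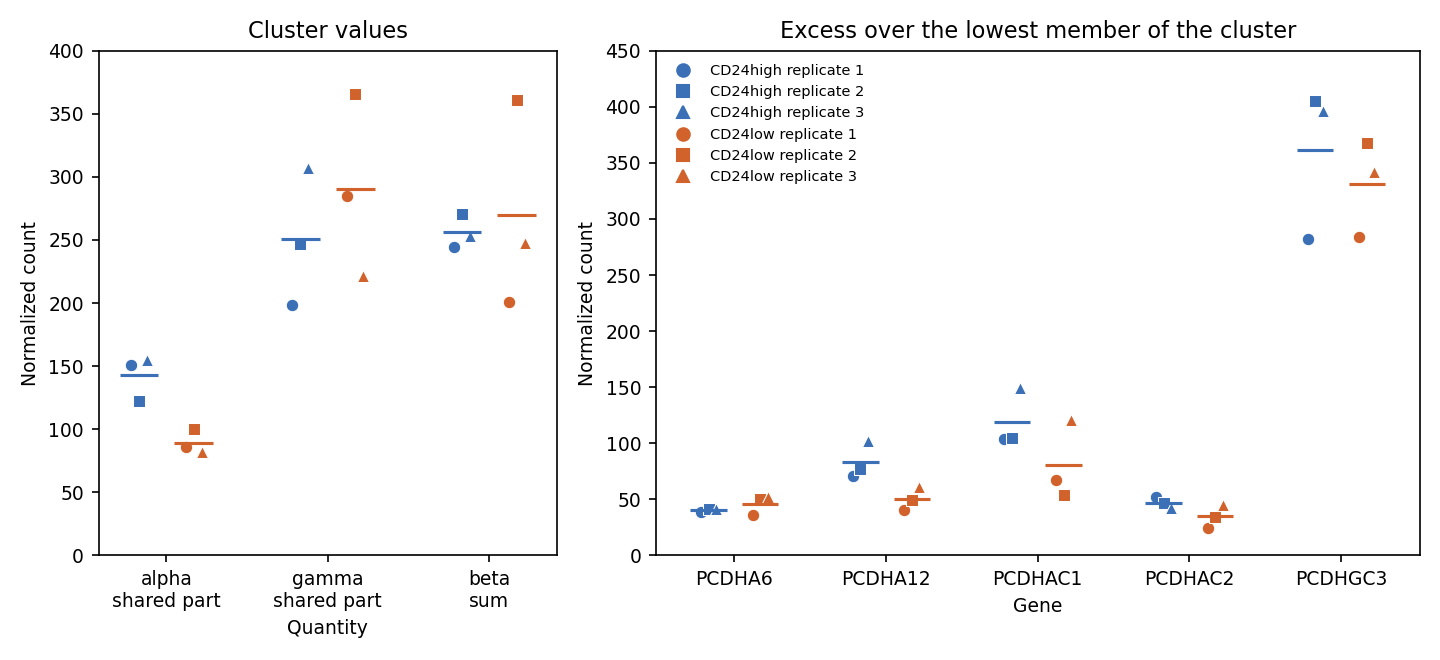
Normalized counts by library of the alpha and gamma shared parts and the summed beta genes (left panel), and of the own part of 5 alpha and gamma genes, that is, the excess over the lowest member of the cluster (right panel), with horizontal lines at group means. The groups separate at the alpha shared part and at PCDHA12 and overlap at the other 6 quantities.

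In the gamma cluster the difference between the fractions was smaller than the spread between libraries. Its shared part was 198, 247 and 307 normalized counts in CD24high and 285, 366 and 221 in CD24low. The groups overlapped, the log2 difference was 0.21 (SE 0.22), the limma adjusted p was 0.72 and the exact permutation p was 0.5. At low rRNA share the difference was 0.00029 and at high share 0.073. All 22 gamma genes had positive differences (median 0.21), in which the shared reads are again repeated. Per kb, the gamma constant exons had 124 normalized counts, beside 40.5 for the alpha constant exons. As in the alpha cluster, the own parts per kb summed to more, 194 over the 22 gamma genes, and the reason was not tested.

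A single gene, the C-type PCDHGC3, accounted for 56.3% of the summed own parts of the 22 gamma genes. PCDHGC3 is the gamma gene known for wide expression outside neurons. Its own part was 282, 405 and 396 normalized counts in CD24high and 284, 368 and 342 in CD24low, and made up 49.9% to 62.1% of its count. The 2 groups covered nearly the same range, with a log2 difference of -0.11 (SE 0.18, limma adjusted p 0.82). At 106 normalized counts per kb of its own exons, it stood far above the next gamma gene, PCDHGB2, at 15.5. The other C-type genes of the cluster, PCDHGC4 and PCDHGC5, had own parts averaging 9.65 and 6.64 normalized counts over the 6 libraries, too low to test.

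Of the 11 gamma genes with a testable own part, 9 had a higher and 2 a lower mean in CD24low, and 0 passed with limma, edgeR or DESeq2, with 0 under 0.05 before adjustment in each. The unadjusted shares over all rows were 13.4% with limma, 14% with edgeR and 12.9% with DESeq2. PCDHGB1 had an own part of 27.4, 33.6 and 29.2 in CD24high and 36.1, 58.3 and 41.1 in CD24low. Its groups did not overlap, and its log2 difference was 0.55 (SE 0.27, limma adjusted p 0.40). PCDHGB3, named after its values were seen, was the other gamma gene whose own parts did not overlap, with 9.13, 15.8 and 16.1 in CD24high and 18.5, 31.5 and 17.6 in CD24low. Of the 11, 2 thus lay wholly higher in CD24low and 0 wholly lower, beside 10.2% and 9.32% of all genes by whole counts. PCDHGB2 had 19.9, 39.5 and 39.5 in CD24high and 32.6, 82.1 and 27.4 in CD24low, so that only CD24low replicate 2 lay above the CD24high range. Summed without PCDHGC3, the gamma own parts were 160, 301 and 241 in CD24high and 215, 461 and 230 in CD24low, with an exact permutation p of 0.6.

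With the shared reads of each cluster counted once, 29 protocadherin rows were tested in place of 46. DESeq2 then called PCDH9 and PCDH7 higher and 0 lower, beside 2.51% of all rows called in either direction, and limma called 0 of 29, beside 0% of all rows. edgeR also called 0 of 29, beside 0% of all rows. Each of the 3 tools had 5 of the 29 rows under 0.05 before adjustment, beside 13.4% of all rows with limma, 12.9% with DESeq2 and 14% with edgeR.

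The beta genes share no exons, so each count is its own, although they are similar in sequence and reads that fit several of them could have been split or dropped. PCDHB1 had no read, 9 genes had a mean below 10 normalized counts, and 6 were tested, with log2 differences from -0.23 to 0.48 and a median of 0.15. limma, edgeR and DESeq2 called 0 of the 6, and 0 were under 0.05 before adjustment with limma or edgeR, beside 13.5% and 14.1% of all genes. Summed over the cluster, the counts were 245, 271 and 253 in CD24high and 201, 361 and 248 in CD24low, with a log2 difference of 0.03 and an exact permutation p of 0.9. The CD24low libraries lay on both sides of the CD24high range, and without CD24low replicate 2 the difference was -0.20.

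PCDHB2 was the most abundant beta gene, with 126, 130 and 121 normalized counts in CD24high and 89.9, 120 and 113 in CD24low. The groups did not overlap, though the highest CD24low value, 120, lay next to the lowest CD24high value, 121. The log2 difference was -0.23 (SE 0.18), with a limma adjusted p of 0.60. PCDHB3 lay the other way, with 13.3, 13.8 and 17.5 in CD24high and 19.4, 21.0 and 22.5 in CD24low, a log2 difference of 0.48 (SE 0.30) and a limma adjusted p of 0.52. PCDHB14 had 29.9, 34.6 and 30.7 in CD24high, and 20.3, 63.0 and 24.5 in CD24low, where replicate 2 stood above and the others below all CD24high libraries.

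Per kb of exon, the PCDHB2 level was 30.5 ± 1.11 normalized counts in CD24high and 26.1 ± 3.84 in CD24low (SD over 3 libraries), and that of PCDHB14 was 6.57 ± 0.52 and 7.44 ± 4.88. PCDHB12, named after its values were seen, was too low to test. It reached 3.32, 3.95 and 2.92 normalized counts in the CD24high libraries and 7.93, 16.2 and 7.84 in the CD24low libraries, without overlap, on 44 reads in all. CD24low replicate 2 was the highest library at PCDH7, PCDH9, PCDHB12, PCDHB14, PCDHGB1, PCDHGB2 and the gamma shared part. It was the lowest library at PCDH1 and was not the highest at PCDHB2, PCDHB3 or the alpha shared part. The share of all genes that were highest in that library was not counted.

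Genes that act on protocadherins were described from a list of 31, covering the chromatin proteins of promoter choice, the proteases that cleave protocadherins and their cytoplasmic partners. Of these, RET had no read and 30 were tested, with a median log2 difference of 0.01. limma called 0 of 30, edgeR called 0, each with 2 under 0.05 before adjustment, and DESeq2 called 1, PIK3R1, higher in CD24low. Over all genes, 13.5% were under 0.05 unadjusted with limma, 14.1% with edgeR, and DESeq2 called 1.36% higher. PIK3R1, a regulatory subunit of phosphoinositide 3-kinase, reached 1289, 1418 and 1184 normalized counts in the CD24high libraries and 1822, 2632 and 1595 in the CD24low libraries (log2 difference 0.61, SE 0.18, DESeq2 adjusted p 0.037). CTCF itself differed by -0.02 (SE 0.11) on the log2 scale. TET1, a dioxygenase that starts the removal of DNA methylation, had 29.9, 34.6 and 46.8 in CD24high and 47.6, 114 and 68.6 in CD24low. The TET1 groups did not overlap but lay close, at 47.6 against 46.8. Its limma adjusted p was 0.26 and its DESeq2 adjusted p 0.13. Of the 30 tested list genes, 4 lay wholly higher in CD24low and 2 wholly lower, beside 10.2% and 9.32% of all genes.

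Of 24 other adhesion genes, which are cadherins, FAT, Dachsous and CELSR genes, calsyntenins and, from the immunoglobulin superfamily, DSCAM, 16 were tested, with a median log2 difference of 0.00. limma and edgeR each called 0 and had 5 under 0.05 before adjustment, with limma 2 higher and 3 lower, beside 13.5% and 14.1% of all genes. DESeq2 called 3, all lower in CD24low, beside 1.15% of all genes. These were the giant cadherin FAT2 (log2 difference -1.02, SE 0.19, DESeq2 adjusted p 0.00077), the epithelial cadherin CDH1 (-0.90, SE 0.23, DESeq2 adjusted p 0.013) and the placental cadherin CDH3 (-0.73, SE 0.17, DESeq2 adjusted p 0.0065). CDH1 is also on the list of epithelial markers. The largest difference on the list was at FAT4, a giant cadherin, with 193, 95.8 and 119.8 normalized counts in CD24high, against 558, 582 and 185 in CD24low. The groups overlapped through CD24low replicate 3, and the log2 difference was 1.58 (SE 0.42, limma adjusted p 0.17, DESeq2 adjusted p 0.081).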

How the data were processed

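Strand-specific libraries of rRNA-depleted total RNA from sorted cells were sequenced, per the labels' protocols. The authors deposited 1 table of normalized counts, a non-negative signal per gene: DESeq2-scaled reads, according to the deposited table and the submitters' processing notes, where STAR 2.5.2, R 3.5.0 and hg38 are also named. Counter, strand setting and annotation: not given in the sources used here. All 6 value columns were used, 3 per group by their labels.

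Every value was a whole multiple of the library's smallest value within 0.1 reads (100% of values), so whole reads were recovered; counts of CD24high replicate 3, the shallowest library, are the least precise. IDs were matched to GENCODE 29 without their version. The 16047 genes whose mean reached 10 normalized counts were tested on the log2 (normalized count + 1) scale with limma 3.58.1, its variance trend on, two-sided, with no term but group. P-values were adjusted by Benjamini-Hochberg over these genes, at a threshold of 0.05. The pseudocount of 1 understates the change of low genes. DESeq2 1.42.0 and edgeR 4.0.16 (quasi-likelihood) were run on the recovered reads in R 4.3.3. Scripts were tested on simulated data. Cluster values were compared by exact permutation. Python 3.11.15, pandas 2.3.3, numpy 2.4.6, scipy 1.17.1 and matplotlib 3.10.9 were used.

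Named genes were PCDH9, every tested member that DESeq2 called or whose groups did not overlap, and the 3 members of each cluster, and of the non-clustered genes, with the highest mean per kb of exon. Members and lists were chosen with earlier results of these data known. Counting shared reads once, and DESeq2 with a replicate block, were added after seeing the data.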

Additional observations from a re-analysis of the deposited data

How the results depend on the processing

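Results were recomputed with pseudocounts of 0.5 and 5, without a filter or with a mean of at least 50, DESeq2, edgeR, other scalings, no trend, a replicate block, the rRNA share as a covariate or within its levels, libraries left out, and shared reads counted once. Of the values recomputed for the counts, medians and cluster values, 102 moved by less than the spread between libraries, or by under 1.5 times for a count, 8 moved further and 1 reversed. Small values changed sign within that spread: the clustered median, 0.19, was -0.02 at low rRNA share, -0.01 without CD24low replicate 2 and 0.50 without both libraries numbered 3, and the gamma shared part, 0.21, was 0.54 without both. limma's count of called protocadherins, 0, was 2 with no filter (0.525% of all genes called), 1 without both libraries numbered 3 (0.642%), and 0 to 2 with 1 library left out (2 without CD24low replicate 3, beside 2.28% of all genes). DESeq2's count, 3, was 0 to 4 with 1 library left out; the 0 came without CD24high replicate 1, beside 1.40% of all genes, and the 4 without CD24low replicate 3, beside 5.24%. The median of the non-clustered genes, 1.82, was 0.63 with no filter and 1.05 at low rRNA share. The summed beta genes differed by -0.20 to 0.22 with 1 library left out and by -0.05 at low rRNA share. PCDHA6 was 0.17 with shared reads counted once. PCDHGC3, 0.03, was -0.056 with the rRNA share as a covariate, -0.13 to 0.14 with 1 library left out and -0.11 with shared reads counted once. PCDHB14, -0.00, was 0.014 with a pseudocount of 5, 0.18 with DESeq2 and with edgeR, 0.00077 scaled by protein-coding totals, 0.066 with the replicate block in edgeR, 0.16 without both libraries numbered 3 and -0.49 to 0.31 with 1 left out. The cause of these changes was not tested, beyond the alternatives' own construction.

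With the replicate block, limma called 5 of 46 protocadherins (PCDHA12, PCDHAC1, PCDH1, PCDH7 and PCDH9) beside 4.46% of all genes, edgeR the same 5 beside 4.39%, and DESeq2 3 beside 4.2%. Deviations from the group means correlated at 0.27 and 0.30 for numbers 1 and 2 but at 0.05 for number 3. CD24low replicate 3 correlated better with CD24high replicate 1 (0.08). CD24high replicate 3, in turn, correlated best with CD24low replicate 3 (0.05, beside 0.03 with replicate 2 and -0.11 with replicate 1). These values do not settle whether the numbers mark pairs, and the planned fits without a block were kept as the main ones.

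With 3 libraries per group the exact test cannot go below 0.1. A count of 0 allows a level of up to 3 reads, that is 2.49 to 4.38 normalized counts across libraries. The own part of an alpha or gamma gene is a lower bound, except where exons of 2 genes overlap further. Reads that fit several beta genes cannot be traced in a gene table.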

Other observations

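The noncoding protocadherin loci were nearly silent. PCDH9-AS1, PCDH9-AS2, PCDH9-AS3 and PCDH9-AS4, antisense to PCDH9, and the pseudogene PCDH8P1 had 0 reads in all 6 libraries. The beta pseudogene PCDHB17P had 0, 3.95 and 1.46 normalized counts in CD24high and 4.41, 8.60 and 6.86 in CD24low. Its groups did not overlap, on 26 reads in all, too few for the test. PCDHB19P, also a beta pseudogene, had 0.83, 0 and 0 in CD24high and 0.88, 3.82 and 1.96 in CD24low, likewise without overlap. The groups overlapped at the other noncoding loci. Of all genes tested, 10.2% lay wholly higher in CD24low. PCDHA14, a pseudogene of the alpha cluster, had 0.83 to 5.84 in CD24high and 0.88 to 2.94 in CD24low.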
